A study of Mus musculus with 12 samples.

Results

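Imprinted genes are genes that are mainly expressed from the copy inherited from 1 parent. This account follows 42 of them through mouse embryos and embryonic stem (ES) cells in which the gene Dcaf11 was intact, knocked out or knocked down. The 42 symbols were chosen by name as known imprinted genes. No rule on their values was used, but earlier results of these data were known at the choice. All 42 stood among the 22619 gene symbols measured. By textbook knowledge 25 of them are expressed from the paternal copy, 16 from the maternal copy, and 1, Gnas, makes transcripts of both kinds. The libraries came from inbred strains, so the values give the level of a gene and not the parental copy it came from.

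At an imprinted locus, DNA methylation set in the egg or the sperm marks 1 parental copy, and that mark is kept through the removal of methylation after fertilisation. ZFP57 and ZFP445, zinc finger proteins that bind the marked copy, and TRIM28, which they recruit, are known to protect these marks. Many imprinted genes lie in clusters that share a control region, and many act on growth of the embryo and placenta. Paternally expressed members often favour growth and maternally expressed members often restrain it.

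RNA was measured in 12 libraries made with Smart-seq2, a full-length cDNA method for small amounts of polyadenylated RNA. The embryos were C57BL/6 and fell into wild type (control embryo, n = 2), Dcaf11 knock out (KO embryo, n = 3), and Dcaf11 knock out whose titles add the word arrest (KO arrest, n = 3). The ES cells, a pluripotent line derived from the early embryo, were 129Sv, in a wild type group (control ESC, n = 2) and a Dcaf11 knock down group (KD ESC, n = 2). The protein DCAF11 brings substrates to a CUL4-DDB1 ubiquitin ligase. The labels do not give the stage, sex or age of the embryos, the number of cells in a library, the part of Dcaf11 deleted or the reagent of the knockdown. Nor do they say whether the libraries of a group stem from different embryos or cultures. The p-values therefore cover no more than the spread among the libraries at hand, and that spread may be technical. Values are FPKM, fragments scaled by gene length and by the depth of the library, and a fold change is a difference of log2(FPKM + 1) with its standard error, which understates the change of low genes.

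The control embryos held 2.82 and 14.3 FPKM of Dcaf11 itself. KO embryos held 3.99, 2.84 and 0.184 FPKM and KO arrest libraries 4.43, 0.422 and 6.02 FPKM. The embryo groups overlapped, and since the deleted part is not given, the level of the whole gene does not check the knockout labels. In the ES cells it was 6.48 and 4.52 FPKM in the controls and 1.69 and 1.83 FPKM after the knockdown, with no overlap. Read coverage at 1 FPKM, which is proportional to depth, ranged from 0.373 to 2.01 over the libraries, and 6573 to 12061 symbols reached 1 FPKM. Across genes, r was 0.774 between the 2 control embryos and 0.970 between the 2 control ESC libraries, and control embryo 1 had the fewest symbols at 1 FPKM. All 4 ES libraries held Pou5f1, Nanog and Sox2 above 240 FPKM. All 8 embryo libraries held the 10 oocyte and early embryo markers (such as Omt2a, Oog3, Bmp15 and Zp3) at 1 FPKM or more. Of the 7 trophectoderm markers Cdx2 was at 0 in all 8, but Tfap2c was at 0.299 to 28.2 FPKM. The 7 together summed to 0.752 to 34.2 FPKM over these libraries.

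Promoter sequences are shown for the members on which the results turn, as the 250 bases before the RefSeq start site in GRCm38.p6. They are written 5′ to 3′ along the gene's strand, with CpG pairs, the sites of imprint methylation, in capitals. Peg3 and Usp29 are paternally expressed neighbours that point away from each other, and the whole stretch between their starts (chr7:6730420-6730582, plus strand) is only 163 bases long. Mcts2 (chr2:152686898-152687147, plus strand), Zrsr1 (chr11:22971755-22972004, plus strand) and Mest (chr6:30737800-30738049, plus strand) are paternally expressed, and Phlda2 (chr7:143502525-143502774, minus strand) is the most abundant maternally expressed member in the embryo libraries.
Peg3-Usp29 interval: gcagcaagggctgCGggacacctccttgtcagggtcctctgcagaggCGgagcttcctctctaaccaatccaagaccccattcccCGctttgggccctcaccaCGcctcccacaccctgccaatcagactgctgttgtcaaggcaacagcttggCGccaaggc
Mcts2: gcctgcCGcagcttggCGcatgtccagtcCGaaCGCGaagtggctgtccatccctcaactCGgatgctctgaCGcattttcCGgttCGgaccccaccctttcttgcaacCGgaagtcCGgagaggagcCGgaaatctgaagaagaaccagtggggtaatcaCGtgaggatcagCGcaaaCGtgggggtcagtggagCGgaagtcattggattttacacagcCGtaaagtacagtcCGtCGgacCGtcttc
Zrsr1: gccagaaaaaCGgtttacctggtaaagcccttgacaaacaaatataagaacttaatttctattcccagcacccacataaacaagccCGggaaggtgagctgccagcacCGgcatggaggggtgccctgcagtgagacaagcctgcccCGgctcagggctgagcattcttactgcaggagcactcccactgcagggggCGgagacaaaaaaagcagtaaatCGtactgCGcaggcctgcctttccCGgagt
Mest: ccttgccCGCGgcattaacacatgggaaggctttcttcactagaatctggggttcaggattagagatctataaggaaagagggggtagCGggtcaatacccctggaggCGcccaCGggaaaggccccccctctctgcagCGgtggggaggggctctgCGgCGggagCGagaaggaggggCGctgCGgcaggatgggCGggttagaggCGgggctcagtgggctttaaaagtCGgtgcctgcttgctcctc
Phlda2: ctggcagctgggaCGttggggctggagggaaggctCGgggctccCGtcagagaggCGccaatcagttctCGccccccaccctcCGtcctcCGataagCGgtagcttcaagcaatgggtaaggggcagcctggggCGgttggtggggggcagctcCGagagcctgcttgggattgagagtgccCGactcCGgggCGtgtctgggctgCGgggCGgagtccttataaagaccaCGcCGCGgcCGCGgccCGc

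The stretch shared by Peg3 and Usp29 held 5 CpG pairs, and the Mcts2, Zrsr1, Mest and Phlda2 windows held 20, 8, 14 and 21. The hexamer TGCCGC, known as the ZFP57 motif, was searched on both strands. It occurred 2 times in the Mest window and 1 time in the Mcts2 window, and not in those of Zrsr1, Phlda2 or the Peg3-Usp29 stretch. RefSeq windows matched 36 of the 42 members by symbol, and 6 of these (16.7%) held the motif: Mcts2, Meg3, Mest, Plagl1, Zdbf2 and Zim1. Among all 27025 symbols with a window the share was 9.84%. The median window of the members had 9 CpG pairs and that of all genes 6. Impact, Cdkn1c, H19, Peg10, Rtl1 and Sgce were not among the matched windows.

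Embryos and ES cells used different parts of the imprinted set. In the embryos 11 to 21 of the 42 members reached 1 FPKM in a library, and in the ES cells 30 to 32 did. Of the 25 paternally expressed members 3 to 12 reached 1 FPKM in an embryo library against 19 or 20 in an ES library. Of the 16 maternally expressed members 5 to 9 did in the embryos against 10 or 11 in the ES cells. Of all symbols 29.1% to 45.5% reached 1 FPKM in the embryos and 51.7% to 53.3% in the ES cells, a shift in the same direction. No member was at 0 in all libraries. Nnat and Slc38a4 were at 0 in all 8 embryo libraries, and Snurf was at 0 in 11 of the 12.

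**Figure D1:**
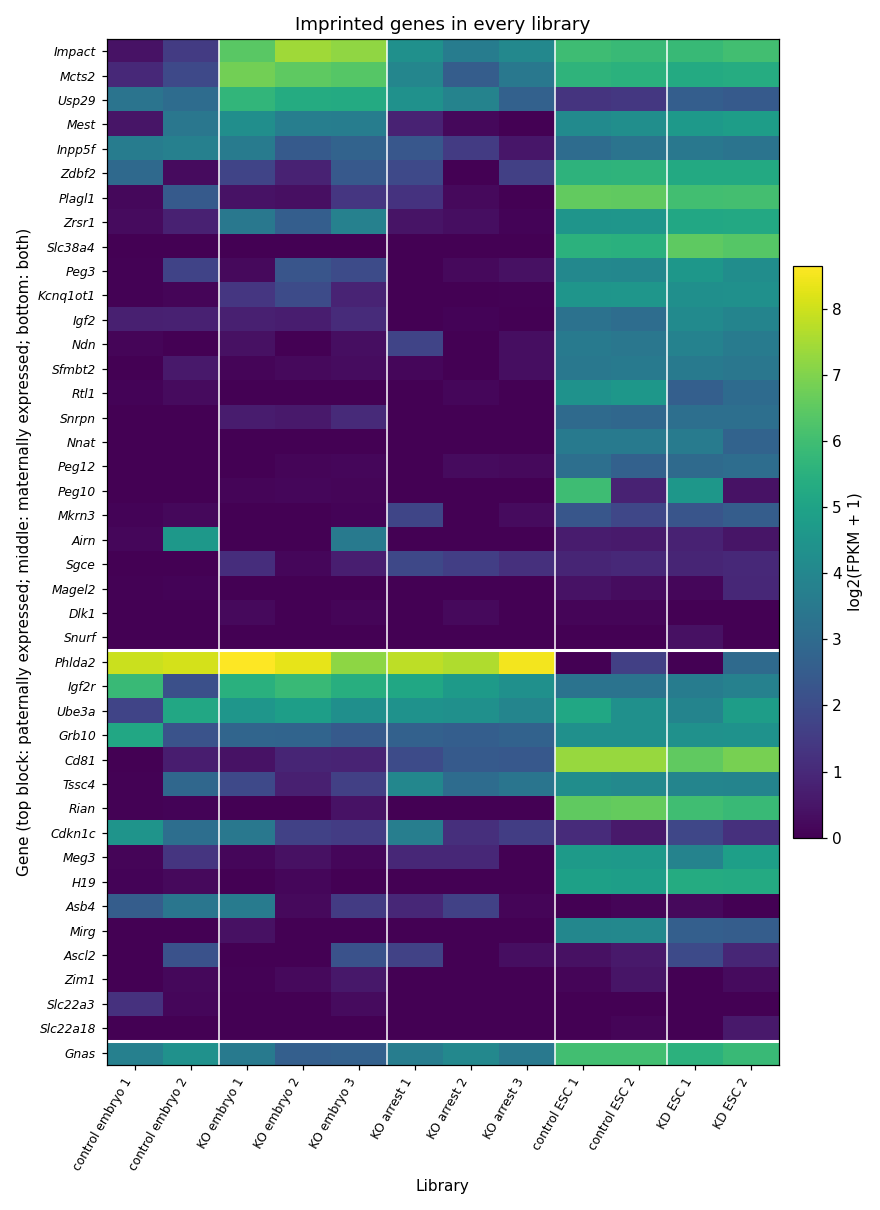
Levels of the 42 imprinted genes (rows) in the 12 libraries (columns) as log2(FPKM + 1), with paternally expressed genes at the top, maternally expressed genes in the middle and Gnas at the bottom. Impact, Mcts2 and Usp29 stand out in the KO embryos, Phlda2 in all 8 embryo libraries, and a broad set that includes Slc38a4, Rian, H19, Plagl1 and Cd81 in the 4 ES libraries.

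The summed level of the 25 paternally expressed members was 30.3 and 66.7 FPKM in the control embryos. It was 294.9 to 329 FPKM in the KO embryos and 34.9 to 70.6 FPKM in the KO arrest libraries. The KO embryos lay above both other embryo groups with no overlap, and 3 genes, singled out after their values were seen, made most of the sum. Impact, Mcts2 and Usp29 together held 83.1% to 90.6% of it in the KO embryos, 75.8% to 85.8% in the KO arrest libraries and 17.9% to 34.2% in the controls. Without these 3 genes the sum was 20.0 and 54.8 FPKM in the controls and 30.8 to 53.9 FPKM in the KO embryos, which overlap. In the KO arrest libraries it was 5.07 to 17.1 FPKM. The summed level of the 16 maternally expressed members was 346 to 366 FPKM in the controls, 219 to 496 FPKM in the KO embryos and 262 to 415 FPKM in the KO arrest libraries. Phlda2 alone held 65.0% to 86.8% of it.

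In KO embryos 4 paternally expressed members were higher than in control embryos, and no tested member was called lower (1.5% of all genes were). A gene was called at an adjusted p under 0.05, from limma with Benjamini-Hochberg adjustment over all 11795 genes with at least 1 FPKM in at least 2 of the 8 embryo libraries. Of the 42 members 22 passed that filter, and 4 of these 22 (18.2%) were called, against 6.36% of all genes tested. All 4 were higher, for which the share of all genes was 4.86%. They were 4 of the 12 paternally expressed members tested, against 0 of the 9 maternally expressed ones, of which 0 had an unadjusted p under 0.05 (limma). Of all 11795 genes 2659 had such a p. Of the 22 tested, Zrsr1, which was called, and Kcnq1ot1 passed the filter through the KO embryos alone, as 1.19% of all genes did. Nothing is therefore read from the members' share. The median log2 fold change was 0.22 for the tested members and 0.31 for all genes. Of all called genes 76.4% were higher as deposited, and 35.6% were higher after median-of-ratios scaling, which lowered the median of all genes by 0.35 on the log2 scale.

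Impact encodes a regulator of the amino acid stress kinase GCN2. It was at 0.335 and 1.86 FPKM in control embryos, 85.9, 170.3 and 147 FPKM in the KO embryos, and 19.4, 11.5 and 15.2 FPKM in the KO arrest libraries. The 3 groups did not overlap. Its group means were 1.10 ± 1.08 (SD, n = 2), 134 ± 43.6 (SD, n = 3) and 15.4 ± 3.94 FPKM (SD, n = 3). The gene lies on chromosome 18 from 13130761 to 13151457 on the plus strand (mm9). KO embryos exceeded the controls by 6.06 ± 0.54 (limma, adjusted p = 0.00239).

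Mcts2 is a retrogene, an intronless copy of the X-linked translation factor gene Mcts1. Its span on chromosome 2 (152512884 to 152513678, plus strand, mm9) lies inside that of H13, its host gene, on the same strand. It was at 0.996 and 2.77 FPKM in control embryos and at 111, 89.0 and 80.7 FPKM in KO embryos. KO arrest libraries held 14.5, 4.85 and 9.98 FPKM, and again the 3 groups did not overlap. KO embryos exceeded the controls by 5.09 ± 0.56 (limma, adjusted p = 0.00239).

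The parent Mcts1 was also higher in the KO embryos, at 78.9, 50.3 and 55.9 FPKM against 12.4 and 7.05 FPKM in the controls, a difference of 2.57 ± 0.48 (limma, adjusted p = 0.0166). The transcripts of the parent and the retrogene were 83.4% identical over 682 aligned columns, with a longest identical run of 29 bases (GENCODE, GRCm38). How far the counting split reads between the pair was not tested. In the control ES cells Mcts2 was at 48.3 and 44.7 FPKM with Mcts1 at 3.28 and 6.81 FPKM, so the copies did not rise and fall together between embryos and ES cells. The host H13 was at 0.942 to 2.46 FPKM in the KO embryos and 1.36 and 2.91 FPKM in the controls.

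Usp29 encodes a deubiquitinating enzyme and starts beside Peg3 at the 163 base stretch shown above. It was at 9.02 and 7.29 FPKM in control embryos and 51.1, 39.0 and 37.5 FPKM in the KO embryos, which did not overlap. The difference was 2.24 ± 0.56 (limma, adjusted p = 0.0435). Leaving out any 1 control or KO embryo library ended this call, with adjusted p between 0.0572 and 0.140. Leaving out KO arrest 2, which shares the estimate of the spread, gave 0.0745. The call also ended without a filter on low values (0.0803) and with median-of-ratios scaling, which gave 1.59 with an adjusted p of 0.135.

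Zrsr1 is a retrogene for a splicing factor, in an intron of Commd1 and on the opposite strand (chromosome 11, 22872005 to 22876496, mm9). It was at 0.195 and 0.714 FPKM in control embryos and 10.1, 5.04 and 12.8 FPKM in the KO embryos, with no overlap, a difference of 2.77 ± 0.61 (limma, adjusted p = 0.0285). Among the embryo libraries it reached 1 FPKM in the KO embryos alone, as did Kcnq1ot1, so it passed the filter through the group where it is high. Without a filter the adjusted p was 0.0824. Without control embryo 1 it was 0.0861, without KO embryo 1 it was 0.0880, and without KO embryo 3 it was 0.0922. Without KO arrest 2 or 3, which share the estimate of the spread, it was 0.0612 and 0.0503. With a pseudocount of 0.1 the fold change was 4.16, with an adjusted p of 0.0638. Its host Commd1 was at 35.1 and 9.57 FPKM in the controls and only 3.43, 1.01 and 4.33 FPKM in the KO embryos. In this comparison the host was thus low where Zrsr1 was high, but the host's difference of -2.43 ± 0.68 was not called (limma, adjusted p = 0.0617). The control ESC held both genes at high levels, Zrsr1 at 21.6 and 22.4 FPKM and Commd1 at 39.0 and 38.6 FPKM. Read strand is not stated, so reads of the pair over shared bases cannot be told apart.

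The other 18 tested members were not called, with fold changes from -1.60 to 1.92. Mest, which encodes a hydrolase-like protein and is a classic marker of paternal expression, was at 0.404 and 9.65 FPKM in control embryos and 18.4, 11.8 and 11.6 FPKM in the KO embryos (1.92 ± 0.84, limma, adjusted p = 0.205). Kcnq1ot1, the long noncoding RNA that silences the Kcnq1 cluster in cis, was at 0.0447 and 0.0883 FPKM in the controls and 1.60, 2.97 and 0.835 FPKM in the KO embryos (1.32 ± 0.48, limma, adjusted p = 0.130). For both genes the groups did not overlap, which was so in the higher direction for 7 of the 22 tested members and for 24.2% of all genes.

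The control embryos disagreed with each other for many members. Of the 20 members with a control embryo at 1 FPKM or more, 11 (55.0%) differed at least 10-fold between the 2 control libraries, against 37.7% of all such symbols. Igf2r, the receptor that clears the growth factor IGF2, was at 56.4 and 3.34 FPKM in the controls, and Grb10, an adaptor that restrains growth signals, at 35.3 and 3.59 FPKM. In the KO embryos Igf2r was at 43.8, 56.9 and 42.0 FPKM and Grb10 at 6.11, 5.82 and 4.50 FPKM. All these values but the 56.9 FPKM of Igf2r lay inside the range of the controls. Airn, the noncoding RNA that silences Igf2r and overlaps it on the opposite strand, was at 0.109 and 23.1 FPKM in the controls and 0, 0 and 10.4 FPKM in the KO embryos. Ube3a, a ubiquitin ligase gene, was at 2.44 and 35.6 FPKM in the controls. For these genes the 2 controls lay farther apart than the means of any 2 embryo groups.

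Phlda2, a maternally expressed brake on placental growth in the Kcnq1 cluster (chromosome 7, 150687453 to 150688429, minus strand, mm9), was the most abundant member in 7 of the 8 embryo libraries and the second most abundant in KO embryo 3. It was at 243.6 and 273 FPKM in control embryos, 399, 317 and 142 FPKM in the KO embryos, and 218, 196 and 359.8 FPKM in the KO arrest libraries. All 3 groups overlapped, and the KO embryo difference was 0.02 ± 0.47 (limma, adjusted p = 0.988). Its neighbour Cdkn1c, an inhibitor of cell division, was at 21.5 and 7.81 FPKM in the controls and 9.89, 2.19 and 1.89 FPKM in the KO embryos, which overlap. Asb4, a maternally expressed gene near Peg10, was at 4.88 and 9.50 FPKM in the controls and 11.2, 0.172 and 1.83 FPKM in the KO embryos.

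Markers of other states moved beside these results. The summed level of the 10 oocyte and early embryo markers was 40209 to 57364 FPKM in control embryos, 12799 to 18752 FPKM in the KO embryos and 1011 to 1666 FPKM in the KO arrest libraries. Of these 10 markers 4 were called lower in the KO embryos than in the controls. The sum of the 5 listed two-cell markers, such as Zscan4c, was 442 to 796 FPKM in the controls and 37.2 to 88.0 FPKM in the KO embryos. The 7 fibroblast markers summed to 16.8 and 61.7 FPKM in the controls and 54.4 to 88.6 FPKM in the KO embryos, with Lum at 3.12 and 10.4 FPKM and at 11.3 to 14.9 FPKM. Of the 6 cumulus cell markers Fshr was at 0 throughout, and the sum was 15.5 and 17.1 FPKM in the controls and 0.337 to 4.46 FPKM in the KO embryos. Among the 7 trophectoderm markers Tfap2c was called higher, at 24.2 to 27.7 FPKM in the KO embryos against 0.299 and 5.34 FPKM in the controls (limma, adjusted p = 0.0219). Of these markers 4 were tested, and the 3 others tested had negative fold changes and were not called. The sum of the 7 was 0.752 and 27.0 FPKM in the controls. In the KO embryos it was 24.6 to 28.9 FPKM, most of it Tfap2c. Of the 8 pluripotency markers 1 was called higher, Dppa5a, and Pou5f1, Nanog and Sox2 were not called. Of the 5 primitive endoderm markers 3 were tested and 0 called by limma, and 2 had an unadjusted p under 0.05. Of the 3, 1 had a positive and 2 a negative fold change. Gata4 was at 21.1 to 38.6 FPKM in the KO embryos and 6.42 and 10.6 FPKM in the controls. Dab2 went the other way, at 2.37 to 4.04 FPKM in the KO embryos and 15.2 and 21.9 FPKM in the controls. The part of any of these in the imprinted gene differences was not tested. Fewer cells of a type and less RNA per cell cannot be told apart in such libraries.

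**Figure D2:**
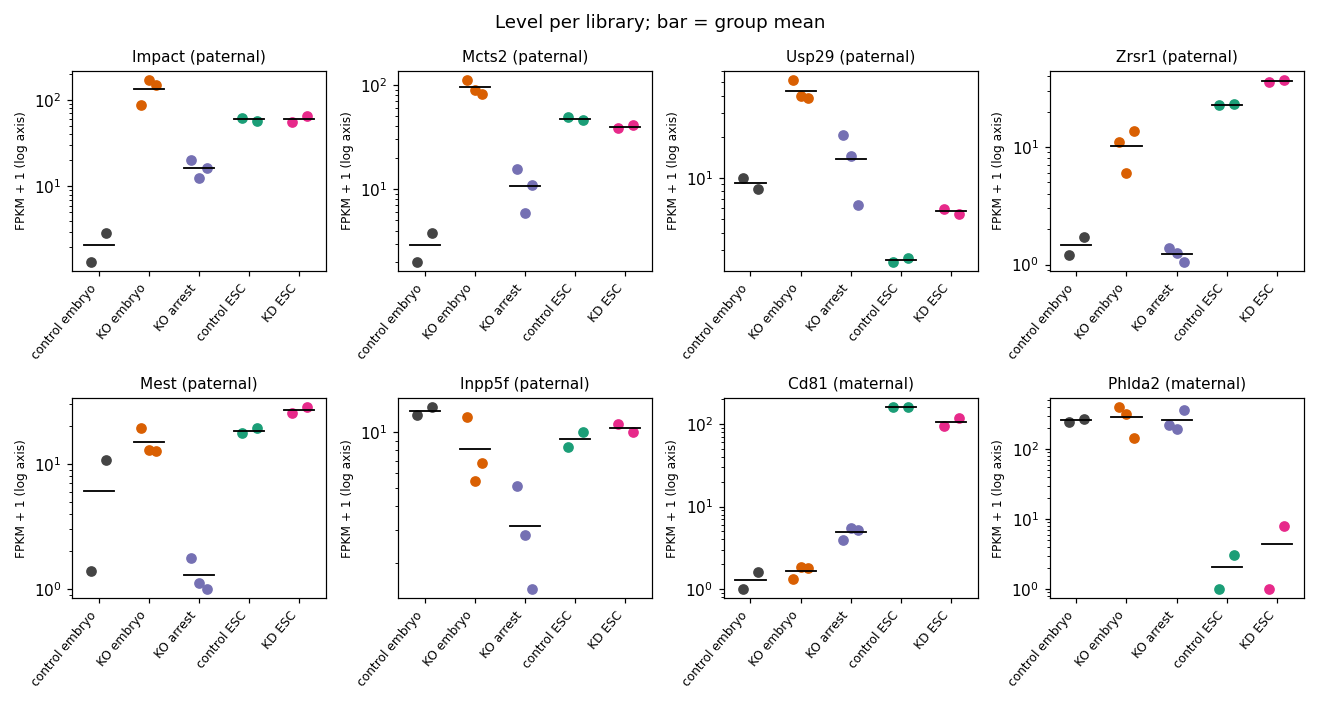
FPKM + 1 on a log axis of 8 imprinted genes in each library by group, with a bar at the group mean. For Impact, Mcts2, Usp29 and Zrsr1 the KO embryos lie above both control embryos, whereas for Phlda2 the embryo groups overlap.

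In the KO arrest libraries some of these paternally expressed genes were lower than in the KO embryos. Of the 22 tested members 4 (18.2%) were called, all lower and all paternally expressed: Impact, Mcts2, Mest and Zrsr1. Zrsr1 had passed the filter through the KO embryos alone. Of all genes 8.58% were called, 3.65% lower and 4.93% higher. Of all called genes 57.4% were higher as deposited and 29.3% under TPM scaling, which moved the median of all genes by -0.34. The median log2 fold change was -0.67 for the tested members and 0.07 for all genes.

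Impact changed by -3.02 ± 0.48 from the KO embryos to the KO arrest libraries (limma, adjusted p = 0.00620), and Mcts2 changed by -3.23 ± 0.50 (limma, adjusted p = 0.00588). Mest was at 0.773, 0.125 and 0 FPKM in the KO arrest libraries, below each KO embryo, a difference of -3.54 ± 0.75 (limma, adjusted p = 0.0195). Without any 1 of the KO embryo libraries, or without KO arrest 2 or 3, the adjusted p for Mest was 0.0583 to 0.0759, and without a filter it was 0.0635. Zrsr1 was at 0.379, 0.261 and 0.0513 FPKM in the KO arrest libraries, a difference of -2.99 ± 0.54 (limma, adjusted p = 0.0110), and without KO arrest 3 the adjusted p was 0.0525. Its host Commd1 went the other way, at 40.4, 93.8 and 75.5 FPKM in the KO arrest libraries (4.21 ± 0.61, limma, adjusted p = 0.00481). Usp29 was at 19.6, 13.5 and 5.37 FPKM there, below each KO embryo, but was not called (-1.80 ± 0.50, limma, adjusted p = 0.0520). Mcts1, at 69.0, 56.9 and 122 FPKM, overlapped its level in the KO embryos, while its retrogene Mcts2 did not.

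Of the 6 fibroblast markers tested, 5 were also called lower in the KO arrest libraries than in the KO embryos, and Lum, Dcn, Col1a2, Col3a1 and Pdgfrb were at 0 in all 3 of them. Their sum was 0.0513 to 2.90 FPKM there against 54.4 to 88.6 FPKM in the KO embryos. Against the control embryos, of the 10 oocyte and early embryo markers 7 were called lower in the KO arrest libraries, of the 8 pluripotency markers 3 higher and 2 lower, and of the 5 two-cell markers tested 1 higher and 3 lower. Against the KO embryos other markers moved as well. Of the 10 oocyte and early embryo markers 6 were called lower, and of the 8 pluripotency markers Nanog and Tdgf1 were called higher. Tdgf1 was at 23.4 to 97.0 FPKM in the KO arrest libraries and 0.537 to 4.14 FPKM in the KO embryos. Gata6, a primitive endoderm marker, was at 12.02 to 32.9 FPKM against 0.0951 to 0.391 FPKM, and was called higher. The two-cell marker Tdpoz4, at 63.9 to 89.2 FPKM against 0 to 11.7 FPKM, was also called higher. These 2 do not stand for their lists. Of the 5 two-cell markers tested, 3 had negative fold changes, among them Zscan4d, at 0.723 to 7.79 FPKM against 19.4 to 20.5 FPKM. Of the 3 primitive endoderm markers tested, 1, Gata4, had a negative fold change. The part of these in the differences of Mest and the other members was not tested.

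Against the control embryos, the KO arrest libraries had 3 members higher and 1 lower of the 22 tested (18.2% called), against 25.2% of all genes, of which 16.4% were higher and 8.87% lower. Of all called genes 64.9% were higher as deposited and 45.0% after median-of-ratios scaling. This comparison and the one of KO embryos with controls share the control libraries. Impact was 3.04 ± 0.54 higher (limma, adjusted p = 0.00302). Mcts2 was 1.86 ± 0.56 higher (limma, adjusted p = 0.0338). Cd81, a maternally expressed tetraspanin gene of the Kcnq1 cluster, was at 2.91, 4.49 and 4.19 FPKM in the KO arrest libraries, 0 and 0.606 FPKM in the controls and 0.341 to 0.852 FPKM in the KO embryos (1.93 ± 0.55, limma, adjusted p = 0.0279). Inpp5f, a paternally expressed gene for a phosphoinositide phosphatase, was at 11.3 and 12.6 FPKM in the controls and 4.12, 1.82 and 0.444 FPKM in the KO arrest libraries (-2.23 ± 0.70, limma, adjusted p = 0.0387).

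The calls of Mcts2, Cd81 and Inpp5f in that comparison each ended when 1 of several libraries was left out, and without a filter on low values, where the adjusted p was 0.0547, 0.0736 and 0.0721. Cd81 reached 1 FPKM in the KO arrest libraries alone among the embryos. Without control embryo 1 the adjusted p was 0.132 for Mcts2, 0.128 for Cd81 and 0.0906 for Inpp5f, and without KO arrest 3 it was 0.0810, 0.0589 and 0.111. Without KO arrest 1 it was 0.0881 for Mcts2, and without KO arrest 2 it was 0.0682 for Cd81 and 0.0893 for Inpp5f. Without control embryo 2 it was 0.0781 for Inpp5f. Leaving out a KO embryo library, which enters through the shared spread, gave 0.0544 to 0.0602 for Mcts2, and 0.0514 and 0.0616 for Inpp5f without KO embryo 1 and 3. Impact was called in every one of these fits. Usp29 was not called (0.44 ± 0.56, limma, adjusted p = 0.596), and Tssc4, a maternally expressed gene beside Cd81, was at 14.8, 7.32 and 9.22 FPKM against 0.0359 and 6.48 FPKM in the controls (1.99 ± 0.85, limma, adjusted p = 0.114).

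**Figure D3:**
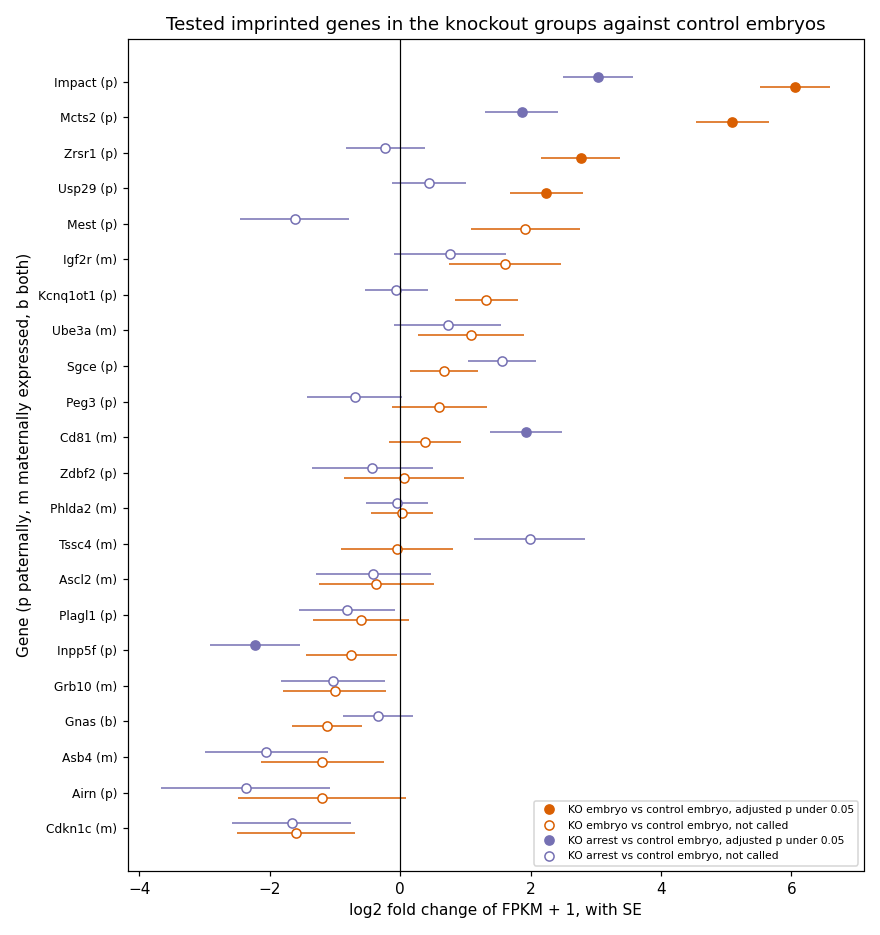
Difference of log2(FPKM + 1) with its standard error for the 22 tested imprinted genes, in KO embryos and in KO arrest libraries, each against control embryos. Filled points have an adjusted p under 0.05. Impact and Mcts2 lie at 6.06 and 5.09 for KO embryos against controls, and Impact lies at 3.04 for KO arrest against controls.

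Of the 24 genes listed for the upkeep of imprints, 23 were tested in the embryos. Between KO embryos and controls limma called 0 of them (6.36% of all genes), and 3 had an unadjusted p under 0.05. Of all 11795 genes 2659 had such a p. Zfp57 was at 96.3 and 186 FPKM in the controls, 66.6, 97.1 and 49.7 FPKM in the KO embryos, and 30.2, 22.9 and 20.7 FPKM in the KO arrest libraries. KO arrest libraries had 2 of these 23 genes higher than the controls (16.4% of all genes were) and 2 lower (8.87% of all genes). The higher ones were Dppa3, which protects the maternal genome from demethylation (1.73 ± 0.43, limma, adjusted p = 0.0161), and Cbx5, a heterochromatin protein gene (2.48 ± 0.71, limma, adjusted p = 0.0271). The lower ones were Zfp57 (-2.42 ± 0.46, limma, adjusted p = 0.00442) and Ezh2, the polycomb methyltransferase gene (-1.46 ± 0.47, limma, adjusted p = 0.0438). Against the KO embryos 1 gene was called, and it was lower (3.65% of all genes were): Ctcfl, a testis paralogue of the insulator gene Ctcf. It was at 12.6 to 14.5 FPKM in the KO embryos and 0 in all 3 KO arrest libraries (limma, adjusted p = 0.0169). Of 32 further imprinted genes in the files, 13 were tested in the embryos, and 0 were called between KO embryos and controls by limma, where 2 had an unadjusted p under 0.05.

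Control ES cells differed from control embryos in most of the set. Of the 36 members tested in the fit of all 12 libraries, 29 (80.6%) were called, against 53.4% of all genes. Of these 36, 9 reached 1 FPKM in ES libraries alone (H19, Mirg, Nnat, Peg10, Peg12, Rian, Rtl1, Sfmbt2 and Slc38a4) and 3 in embryo libraries alone (Airn, Asb4 and Sgce). The 9 passed the filter through the ES libraries alone, as 11.2% of all genes did, and the 3 through the embryo libraries alone, as 12.1% did, so nothing is read from the members' share. Of the members 25 were higher in the ES cells (40.8% of all genes) and 4 lower (12.6% of all genes). The higher ones were 18 paternally expressed members, 6 maternally expressed members and Gnas. Of all called genes 76.4% were higher as deposited and 54.3% after quantile normalisation, which moved the median of all genes by -0.93. Strain and cell type differ together here and cannot be told apart.

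Several paternally expressed members lay at 6.81 FPKM or less in the control embryos and at 7.54 FPKM or more in the control ESC. Slc38a4, a gene for an amino acid transporter, was at 0 in all 8 embryo libraries and at 45.5 and 44.3 FPKM in the control ESC (5.52 ± 0.31 against control embryos, limma). Plagl1, which encodes a zinc finger regulator of other imprinted genes, was at 0.125 and 4.49 FPKM in control embryos and 93.0 and 91.9 FPKM in the control ESC. Zdbf2 was at 6.81 and 0.181 FPKM in control embryos and 46.9 and 48.3 FPKM in the control ESC. Sfmbt2, a polycomb protein gene, was at 10.05 and 10.6 FPKM in the control ESC. Igf2, the fetal growth factor gene, was at 8.61 and 7.54 FPKM in the control ESC and at most 1.08 FPKM in the embryo libraries. Kcnq1ot1 was at 21.8 and 22.4 FPKM, and Nnat, in an intron of Blcap, at 10.8 and 10.5 FPKM, with Blcap itself at 17.2 and 19.04 FPKM.

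Impact and Mcts2 were also higher in control ESC than in control embryos, at 60.6 and 56.8 FPKM and at 48.3 and 44.7 FPKM. For Impact the difference was 4.93 ± 0.46 (limma). The KO embryos lay above the control ESC for both genes in each library, and the KO arrest libraries lay below. Zrsr1 was at 21.6 and 22.4 FPKM in the control ESC, above its 5.04 to 12.8 FPKM in the KO embryos. Mest was at 16.5 and 18.2 FPKM in the control ESC, and its difference from the control embryos was called (limma). That call ended without control ESC 1, without control ESC 2 or without control embryo 1, with adjusted p of 0.102, 0.121 and 0.185, and the fold change without control embryo 1 was 0.79.

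Of the paternally expressed members of the Snrpn cluster on chromosome 7, Snrpn, Ndn, Peg12 and Mkrn3 were higher in the ES cells. In the control ESC Snrpn, a splicing factor gene, was at 6.97 and 6.36 FPKM, Ndn, a growth suppressor gene, at 10.7 and 9.64 FPKM, Peg12 at 7.94 and 5.37 FPKM, and Mkrn3 at 4.01 and 2.61 FPKM. All 4 calls were against control embryos with at most 0.135 FPKM. Magel2, of the same cluster, stayed at or below 0.948 FPKM in every library. Snurf, whose span shares 22655 bases with Snrpn on the same strand, was at 0 in both control ESC libraries. Sgce, a sarcoglycan gene beside Peg10, was at 0.859 and 0.982 FPKM in the control ESC, 0 in both control embryos and 1.30 to 2.67 FPKM in the KO arrest libraries. Its call (0.94 ± 0.34, limma, adjusted p = 0.0397) ended when any 1 of the 4 libraries was left out, with adjusted p from 0.0841 to 0.145.

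Peg3 and Usp29 showed opposite levels in the 2 cell types although they share the 163 bases between their starts. Peg3, which encodes a zinc finger protein, was at 15.6 and 14.9 FPKM in the control ESC and 0.0378 and 2.35 FPKM in the control embryos. Usp29 was at 1.44 and 1.62 FPKM in the control ESC, lower than its 9.02 and 7.29 FPKM in the control embryos (-1.85 ± 0.51, limma, adjusted p = 0.0113). In the KO embryos, where Usp29 reached 37.5 to 51.1 FPKM, Peg3 was at 0.172, 3.88 and 2.95 FPKM.

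Of the maternally expressed members, Cd81, H19, Meg3, Mirg, Rian and Tssc4 were higher in the control ESC and Phlda2, Cdkn1c and Asb4 lower. Cd81 was at 158 and 159 FPKM in the control ESC, the highest of the members there (6.97 ± 0.38, limma). H19, the noncoding RNA next to Igf2, was at 29.4 and 28.05 FPKM and at most 0.154 FPKM in the embryos. Phlda2 was at 0 and 2.13 FPKM in the control ESC against 142 to 399 FPKM over the embryo libraries (-7.20 ± 0.90 against control embryos, limma, adjusted p = 0.000126). That fold change was -6.37 without control ESC 1 and -8.02 without control ESC 2. Cdkn1c was at 1.10 and 0.502 FPKM, Asb4 at 0 and 0.0833 FPKM and Tssc4 at 17.9 and 15.8 FPKM in the control ESC. The calls of Asb4, Cdkn1c, Tssc4, Mkrn3 and Usp29 each ended without control ESC 1, at adjusted p of 0.0854, 0.0578, 0.0785, 0.0619 and 0.0592. Those of Asb4, Cdkn1c and Tssc4 also ended without control ESC 2, at 0.0744, 0.0969 and 0.0634. Without control embryo 1 Cdkn1c and Tssc4 had adjusted p of 0.106 and 0.0883, with fold changes of -2.31 and 1.25, and without control embryo 2 Asb4 had 0.0831. Without control embryo 2 the fold changes of Cdkn1c, Tssc4 and Mest were -3.66, 4.11 and 3.71. For members whose call stayed, the fold change without control embryo 1 and without control embryo 2 was 3.34 and 4.58 for Meg3, 2.28 and 3.96 for Peg3, 4.09 and 6.38 for Plagl1, and 5.36 and 2.64 for Zdbf2.

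Among the 23 imprint upkeep genes tested, 7 were higher (40.8% of all genes were) and 6 lower (12.6% of all genes) in the control ESC than in the control embryos. Dppa3 was at 4949 and 12398 FPKM in control embryos and 10.7 and 7.69 FPKM in the control ESC. Trim28, Uhrf1, which targets maintenance methylation, Cbx5 and Dnmt1, the maintenance methyltransferase gene, were higher, by 4.47, 4.74, 4.41 and 3.08 on the log2 scale, and Nlrp2, a maternal effect gene, was lower (-2.54). The Kcnq1 cluster therefore held the member with the highest level in the embryos, Phlda2, and the one with the highest level in the ES cells, Cd81.

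**Figure D4:**
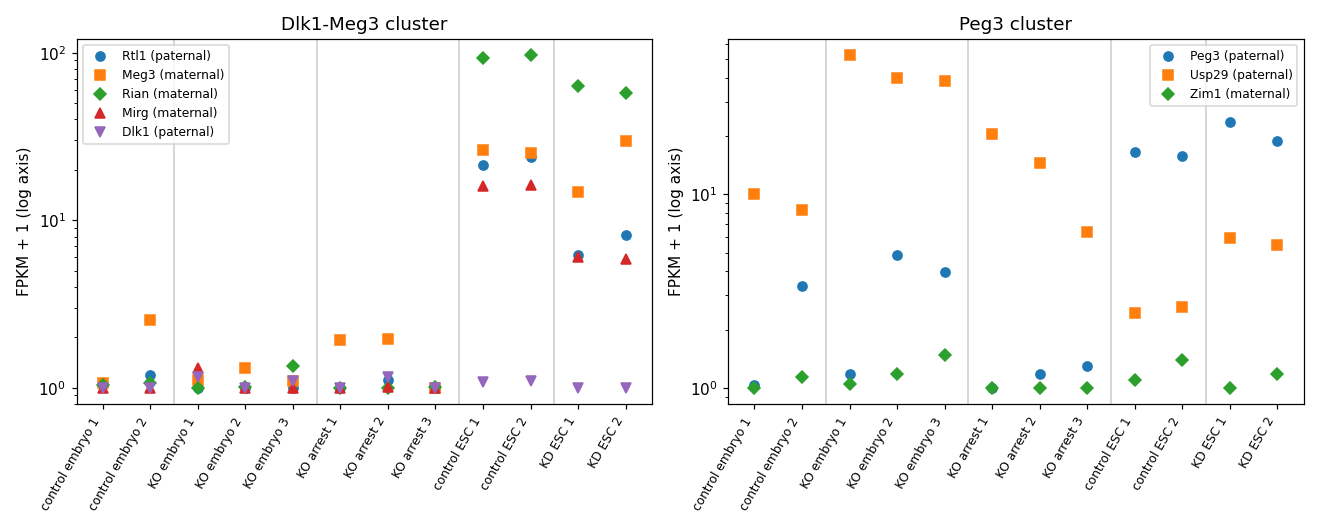
FPKM + 1 on a log axis, by library, of members of the Dlk1-Meg3 cluster (left) and the Peg3 cluster (right). Rian, Meg3, Rtl1 and Mirg lie at 1.55 FPKM or less in the embryos and at 4.87 FPKM or more in the ES libraries, Dlk1 lies near 0 throughout, and Usp29 lies above Peg3 in the embryos and below it in the ES cells.

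After the Dcaf11 knockdown in ES cells, genes of the Dlk1-Meg3 cluster were lower, and a few paternally expressed genes elsewhere were higher. Of 32 members tested, 7 (21.9%) were called, against 6.23% of all 12264 genes tested in the 4 ES libraries. Of these, 3 were higher (2.59% of all genes) and 4 lower (3.64% of all genes). The median log2 fold change was 0.04 for the tested members and -0.09 for all genes. Of all called genes 41.6% were higher as deposited and 55.1% after median-of-ratios scaling.

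The Dlk1-Meg3 cluster lies on chromosome 12 between 110691033 and 110987667 (mm9) and holds Dlk1 and the retrotransposon-derived Rtl1, both paternally expressed, and the maternally expressed noncoding RNAs Meg3, Rian and Mirg. Rtl1 was at 20.4 and 22.8 FPKM in the control ESC and 5.20 and 7.12 FPKM in the KD ESC (-1.67 ± 0.18, limma, adjusted p = 0.0314). Mirg, which hosts microRNAs, was at 14.96 and 15.3 FPKM and fell to 5.08 and 4.87 FPKM (-1.43 ± 0.12, limma, adjusted p = 0.0262). Rian, which hosts small nucleolar RNAs, was at 91.8 and 95.3 FPKM and fell to 62.0 and 56.8 FPKM (-0.65 ± 0.08, limma, adjusted p = 0.0384). The KD ESC lay below the control ESC for these 3 genes with no overlap. Meg3 was at 25.2 and 24.3 FPKM in the control ESC and at 13.7 and 28.7 FPKM in the KD ESC, which overlap (-0.30 ± 0.35, limma, adjusted p = 0.601). Dlk1 was at 0.164 FPKM or less in every library. The cluster thus had a paternally and 2 maternally expressed members lower together. Rtl1 shares 1317 of its 5235 bases with 6430411K18Rik on the opposite strand, and microRNA genes also lie opposite it. Read strand is not stated, so reads over the shared bases cannot be told apart.

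Plagl1 was lower in the KD ESC, at 64.2 and 66.2 FPKM (-0.50 ± 0.07, limma, adjusted p = 0.0423). Slc38a4 was higher, at 89.2 and 80.9 FPKM against 45.5 and 44.3 FPKM (0.90 ± 0.09, limma, adjusted p = 0.0300). Usp29 was higher, at 4.95 and 4.48 FPKM (1.17 ± 0.17, limma, adjusted p = 0.0407), and so was Zrsr1, at 35.1 and 36.4 FPKM (0.67 ± 0.09, limma, adjusted p = 0.0387). Commd1, the host of Zrsr1, was at 41.2 and 49.8 FPKM against 39.0 and 38.6 FPKM. All 7 calls ended without control ESC 1, where limma called 13 genes in all, and all 7 ended without control ESC 2. With all 4 libraries 14 of the 32 members had an unadjusted p under 0.05 (limma), against 3706 of all 12264 genes. Without KD ESC 1 or KD ESC 2, 4 and 5 members were called.

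The other 25 tested members were not called, with fold changes from -0.89 to 0.84. Igf2 was at 16.6 and 14.0 FPKM in KD ESC, above both controls (0.84 ± 0.15, limma, adjusted p = 0.0514), while H19 was at 38.8 and 37.6 FPKM. Cd81 was at 92.2 and 117 FPKM, below both controls (-0.60, limma, adjusted p = 0.0692). Impact was at 55.2 and 64.6 FPKM and Mcts2 at 37.5 and 40.2 FPKM in the KD ESC, and neither was called. Grb10 was at 19.9 and 20.3 FPKM against 19.1 and 19.3 FPKM, and Gnas, the stimulatory G protein gene, at 45.9 and 56.4 FPKM against 64.5 and 63.6 FPKM. Peg10, a retrotransposon-derived gene, followed the replicate number: it was at 60.7 and 0.795 FPKM in the control ESC and at 22.8 and 0.349 FPKM in the KD ESC. Ndn was at 9.64 to 13.2 FPKM over the 4 ES libraries and Ube3a at 13.8 to 34.9 FPKM.

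**Figure D5:**
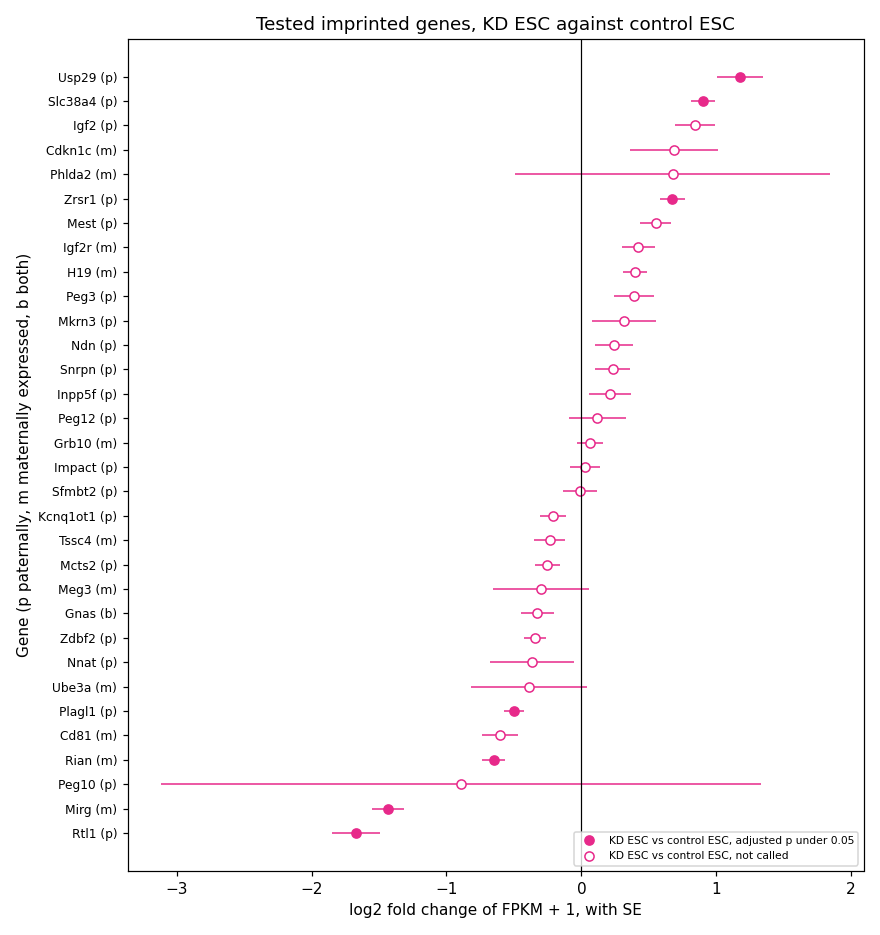
Difference of log2(FPKM + 1) with its standard error between KD ESC and control ESC for the 32 tested imprinted genes, with filled points for an adjusted p under 0.05. Rtl1, Mirg, Rian and Plagl1 are called lower and Usp29, Slc38a4 and Zrsr1 higher, and the widest error is that of Peg10.

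Of the 21 imprint upkeep genes tested in the ES cells, 1 was called higher (2.59% of all genes) and 2 lower (3.64% of all genes). Dppa3 was higher in the KD ESC, at 52.3 and 45.2 FPKM against 10.7 and 7.69 FPKM (2.30 ± 0.19, limma, adjusted p = 0.0253). Dnmt3b, a de novo DNA methyltransferase gene, was lower, at 5.99 and 6.54 FPKM against 14.8 and 17.4 FPKM (-1.23 ± 0.14, limma, adjusted p = 0.0317), and Cbx5 was lower by a difference of -0.48 ± 0.07 (limma, adjusted p = 0.0445). The fibroblast markers, which feeder cells would carry, summed to 73.8 and 75.0 FPKM in the control ESC and to 52.4 and 46.8 FPKM in the KD ESC, with Lum at 0 in all 4. The 8 pluripotency markers summed to 3053 and 3111 FPKM and to 2331 and 2632 FPKM, and 3 of them, Pou5f1, Klf4 and Dppa5a, were called lower. The two-cell markers summed to 33.1 and 23.8 FPKM in the control ESC and to 3.47 and 3.96 FPKM in the KD ESC, and 2 of the 4 tested, Zscan4c and Zscan4d, were called lower. The part of these in the differences of the members was not tested.

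The knockout effect in embryos and the knockdown effect in ES cells were set against each other in the fit of all 12 libraries. The test of the difference itself called 2 of 36 members (5.56%), against 2.69% of all 14447 genes, both in the direction of a larger effect in the embryos (2.06% of all genes, against 0.623% in the other direction). Impact differed by 6.03 ± 0.62 (limma, adjusted p = 0.00424) and Mcts2 by 5.35 ± 0.65 (limma, adjusted p = 0.00492). Zrsr1 and Usp29 were called higher in both systems, but the calls of both genes in both systems ended when single libraries were left out. Zrsr1 had also passed the embryo filter through the KO embryos alone, so nothing is read from the shared direction. For Zrsr1 the difference of the effects, 2.09, was not called (limma, adjusted p = 0.102). Mirg and Rtl1 had adjusted p of 0.0527 and 0.0691. For these 2 genes the embryos were near 0 in every group.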

How the data were processed

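The deposited files give FPKM, TPM and coverage per gene for 12 Smart-seq2 libraries. Per the submitters' processing notes, reads went through tools named as STAR 0.6.0, StringTie and DESeq2, on build mm9. Not given in the sources used here: what each did, with which settings, strand and annotation. The deposited FPKM values were summed per symbol, and rows without a gene name, 0.549% to 1.19% of FPKM, were left out. The deposited TPM served as an alternative scaling and the deposited coverage for relative depth. Without read counts no counting interval could be given.

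Groups came from the sample titles. limma 3.58.1 (trend) in R 4.3.3 tested log2(FPKM + 1) for genes that reached 1 FPKM in 2 or more libraries of the fit: 8 embryo libraries (5 residual degrees of freedom), 4 ES libraries (2 residual degrees of freedom), or all 12. Benjamini-Hochberg adjustment ran over all genes kept, and the fits were tested on simulated data. Of genes given a log2 difference of 2 there, 12% were recovered for KO embryos and 7% for KO arrest, each against controls. The share was 21% for KO arrest against KO embryos, 81% for KD ESC and 24% for control ESC against control embryos. For the difference of effects it was 5%. At a log2 difference of 5 these shares were, in the same order, 73%, 64%, 81%, 96%, 61% and 47%. A gene that was not called may thus still differ.

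The members and lists were chosen with earlier results of these data known. Named are Dcaf11, every called member, members above 10 FPKM in a group mean, the called genes of imprint upkeep (at most 6 per comparison, by p), and Mcts1, H13, Blcap and Commd1. Other genes named, among them markers, Dlk1, Snurf and Suz12, were chosen after their values were seen. Alternatives were other pseudocounts, filters, scalings and sets of libraries, a replicate block, and each library left out. Promoters came from RefSeq (GRCm38.p6), gene positions from the files (mm9).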

Additional observations from a re-analysis of the deposited data

Results flagged for a closer look

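The effects of losing Dcaf11 in embryos and of lowering it in ES cells differed for Impact and for Mcts2, by a test of the difference itself in the fit of all 12 libraries (limma). The KO embryo effect minus the KD ESC effect was 6.03 for Impact and 5.35 for Mcts2 on the log2(FPKM + 1) scale. All 3 KO embryos lay above both control embryos for both genes. In the ES cells Impact was at 55.2 and 64.6 FPKM after the knockdown, around its control values of 60.6 and 56.8 FPKM. Mcts2 was at 37.5 and 40.2 FPKM after the knockdown, below its control values of 48.3 and 44.7 FPKM. Strain, cell type and the way Dcaf11 was lowered differ together between these systems and cannot be told apart.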

How the results depend on the processing

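No called member reversed its direction: of 663 values of called members under other settings, 539 kept their side of the threshold and 124 lost it. The largest share of these values came from control ESC against control embryos, where 29 members were called, so the pooled count does not describe the knockout and knockdown comparisons. Settings in which a called member failed the filter were not counted. For KO embryos against controls 4 members were called, and 2 with a pseudocount of 0.1, without a filter or with only the 2 groups in the fit. Leaving out 1 library gave 2 to 6, and Impact and Mcts2 were called under every setting. For KO arrest against controls 4 were called, 1 without a filter, 2 with TPM, 1 with only the 2 groups, and 1 to 6 with 1 library left out. For KO arrest against KO embryos 4 were called, 7 with only the 2 groups, 7 with all 12 libraries, and 2 to 7 with 1 left out. For KD ESC 7 were called, 3 without a filter, 2 with all 12 libraries, and 0 to 5 with 1 left out. For control ESC against control embryos 29 were called, and 22 to 30 with 1 left out. For the difference of the knockout and knockdown effects 2 were called, 4 with a minimum of 5 FPKM, and 2 to 8 with 1 left out, an alternative chosen after seeing the data. The cause of these changes was not tested. A group reduced to 1 library borrows its spread from the rest of the fit. Coverage at 1 FPKM was 0.373 to 0.659 in the KO arrest libraries, against 1.22 and 2.01 in the control embryos, which limits what can be said of members near 0 there.

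Counts over all genes moved from 750 to between 76 and 1817 for KO embryos, from 2976 to between 1965 and 4068 for KO arrest against controls, from 1012 to between 285 and 2081 for KO arrest against KO embryos, from 764 to between 13 and 967 for KD ESC, and from 388 to between 39 and 2020 for the difference of effects.

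The labels do not say whether the replicate numbers pair the samples. Deviations of same-numbered libraries from their group means correlated at -0.101 to 0.0247. Each group mean rests on few libraries, so these values cannot decide whether the samples were paired. With the replicate block 2 members were called for KO embryos, 1 for KO arrest against controls and 0 for KD ESC. For KD ESC the smallest adjusted p of the 7 members was 0.0786, and 15 of 32 members had an unadjusted p under 0.05 (limma). How many of all genes had such a p with the block was not counted.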

Other observations

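In the ES cells the KD ESC libraries lay far apart for some genes. Zfp57 was at 10.5 and 10.1 FPKM in the control ESC and at 12.6 and 186 FPKM in the KD ESC. Esrrb, a pluripotency gene, was at 255 and 253 FPKM in the control ESC and 28.6 and 244 FPKM in the KD ESC. Suz12, a polycomb gene, was at 6.27 and 13.2 FPKM in the control ESC and 33.9 and 125 FPKM in the KD ESC. Peg10 and Phlda2 were the members whose ES libraries of 1 group differed at least 10-fold.

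The span of 21 of the 42 members overlaps another listed gene, in 13 of them a gene on the opposite strand. Kcnq1ot1 lies within Kcnq1 over its whole 83437 bases, Zrsr1 within Commd1 over 4492 bases and Nnat within Blcap over 2410 bases, each on the opposite strand, and Mcts2 within H13 over 795 bases on the same strand.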
